A study of Mus musculus with 24 samples.

Results

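The Fc gamma receptors of the mouse, their signalling adaptors and the kinase that reads them were followed as 8 genes: Fcgr1, Fcgr3, Fcgr4, Fcgr2b, Fcer1g, Tyrobp, Syk and Fcgrt. They were chosen by symbol out of the 54658 gene symbols that the count tables list, and all 8 passed the low-count filter in each tissue. The counts came from male C57BL/6 mice of 7 to 12 weeks that received β-nicotinamide mononucleotide (β-NMN), a precursor of NAD+, or its vehicle, saline. Peritoneal cells were taken from 6 vehicle and 6 β-NMN mice 3 days after 1 ml of thioglycollate medium (TGC), an irritant that draws leukocytes into the peritoneal cavity, and were stimulated in the dish with E. coli for 6 h. Hearts and lungs were taken from 3 vehicle and 3 β-NMN mice 24 h after cecal ligation and puncture (CLP), a surgical model of sepsis, and both organs came from the same mice. β-NMN was injected intraperitoneally at 185 mg/kg/day. The peritoneal mice received it once daily for 3 days, the first dose together with TGC and the last 24 h before the cells were taken. The CLP mice had received a single dose, given right after surgery, when their organs were taken. Every library therefore came from an inflamed mouse, libraries of sham-operated or unstimulated samples were not analysed here, and the peritoneal cells were plated lavage cells and not a sorted population.

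Fc gamma receptors bind the constant part of IgG and link antibody-coated particles to phagocytosis, cytokine release and killing by macrophages, monocytes and neutrophils. The activating receptors FcγRI (Fcgr1), FcγRIII (Fcgr3) and FcγRIV (Fcgr4) do not signal on their own, but through the FcR γ chain (Fcer1g), whose immunoreceptor tyrosine-based activation motif (ITAM) is phosphorylated by Src-family kinases and then binds the kinase Syk. FcγRIIB (Fcgr2b) carries an immunoreceptor tyrosine-based inhibitory motif (ITIM) instead and recruits the lipid phosphatase SHIP1 (Inpp5d), which dampens the activating receptors. DAP12 (Tyrobp) is another ITAM adaptor, used by TREM receptors and many others, and FcRn (Fcgrt) is an intracellular receptor that pairs with β2-microglobulin and recycles IgG and albumin.

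The motifs that divide these genes into activating and inhibitory ones are short, and their coding sequences are shown here because the results turn on the balance between them. The capitals mark the codons of the tyrosines that are phosphorylated. The sequences were read from the GRCm38 genome with the transcripts of GENCODE M21.
Fcer1g ITAM: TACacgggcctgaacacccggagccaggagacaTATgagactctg
Tyrobp ITAM: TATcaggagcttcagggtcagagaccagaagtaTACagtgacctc
Fcgr2b ITIM: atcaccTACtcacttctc
The ITAM of Fcer1g lay in codons 65 to 79 of 86, across exons 4 and 5, on the minus strand at chr1:171229889-171230072. That of Tyrobp lay in codons 92 to 106 of 114, across exons 4 and 5, on the plus strand at chr7:30415670-30417382. The ITIM of Fcgr2b lay in codons 317 to 322 of 340, in exon 8, on the minus strand at chr1:170961071-170961088.

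Of the 8 genes, 4 lie near each other on chromosome 1, where Fcgr2b (chr1:170958617-170976547, minus strand), Fcgr4 (chr1:171018920-171029761, plus strand), Fcgr3 (chr1:171051174-171064935, minus strand) and Fcer1g (chr1:171229572-171234365, minus strand) follow each other. Fcgr1 lies at chr3:96282909-96293969 on the minus strand, Syk at chr13:52583173-52648792 on the plus strand, Tyrobp at chr7:30413760-30417585 on the plus strand and Fcgrt at chr7:45092990-45103851 on the minus strand. Fcgr3 and Fcgr2b are close copies in the part that binds IgG, and a stretch of 129 bases is identical between their coding sequences.
Fcgr3 and Fcgr2b, shared: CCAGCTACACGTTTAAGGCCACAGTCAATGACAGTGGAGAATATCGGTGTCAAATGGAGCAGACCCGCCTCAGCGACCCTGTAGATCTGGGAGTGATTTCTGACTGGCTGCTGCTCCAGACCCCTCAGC
All bases are in capitals because all are shared. It spans 171054167 to 171057792 of chromosome 1 in Fcgr3 and 170966674 to 170968081 in Fcgr2b, introns included. The stretch is shorter than the stated read length of 150 bases, and no run of 150 bases was found in the transcripts of both genes. Between the other pairs of receptor genes the longest identical stretch was 13 or 14 bases. The 155 exon bases (2.68%) that Fcgr2b shares with the antisense gene Gm38204 were the only exon overlap of a member with another annotated gene, and no source used here says if reads were assigned by strand.

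Each library was represented by the number of reads per gene. Totals ranged from 31126823 to 112456050 reads in peritoneal cells, from 27319513 to 68523239 in hearts and from 8915366 to 28356786 in lungs. The members were counted with 756 to 92905 reads per library in peritoneal cells, with 258 to 5274 in hearts and with 45 to 3611 in lungs. Values are given as CPM, the read count of a gene relative to the library size after normalization by the trimmed mean of M-values (TMM), for each tissue alone unless stated. The labelled tissues matched their markers. Macrophage markers summed to 7540 to 14200 CPM in peritoneal cells, and cardiomyocyte markers to 29600 to 52400 CPM in hearts against 74.3 to 415 in lungs. Alveolar markers summed to 25800 to 46900 CPM in lungs and to 62.5 to 74.6 in hearts. The lung of vehicle replicate 2 stood apart from the rest: it had the fewest reads, it was the lowest of the 6 lungs for Fcgr1, Fcgr3, Tyrobp and Syk, and it was the highest for Fcgr4, Fcer1g and Fcgrt.

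Levels can be compared between genes only per length, so CPM were divided by the kilobases of exon of each gene. In peritoneal cells of vehicle mice the adaptors came first, with 498 ± 65.5 CPM per kilobase for Fcer1g and 367 ± 48.9 for Tyrobp (SD, n = 6), without overlap. Fcgr1 (169 ± 52.1), Fcgr4 (149 ± 62.2), Fcgr3 (92 ± 22.4) and Syk (81.1 ± 6.13) followed, and each neighbour in this series overlapped the next. Fcgr2b had 54.6 ± 14.2, overlapping Syk, and Fcgrt was last with 11.4 ± 2.12. In β-NMN mice Tyrobp (622 ± 71.6) stood above Fcer1g (508 ± 23.1) with overlapping ranges, and the remaining order was Fcgr4, Fcgr1, Fcgr3, Syk, Fcgr2b (30.1 ± 5.88) and Fcgrt (15 ± 2.16). There the ranges of Fcgr2b and Syk no longer overlapped. With the longest transcript in place of all exon bases, Syk moved ahead of Fcgr3 in both groups, and the ends of the order kept their places.

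In the organs the IgG recycling receptor stood much higher in the order. Fcgrt led in hearts of vehicle mice with 38.1 ± 9.16 CPM per kilobase (SD, n = 3), overlapping Fcer1g (29.3 ± 0.954). The range of Fcer1g lay above that of Tyrobp. Tyrobp (23.5 ± 2.48), Fcgr3 (18 ± 0.926), Fcgr4 (15.9 ± 4.76), Syk (10.8 ± 0.975), Fcgr2b (7.43 ± 1.2) and Fcgr1 (7.39 ± 2.22) came next. Among these neighbours Tyrobp and Fcgr3 did not overlap, nor did Syk and Fcgr2b. With the longest transcript, however, Tyrobp (23.3 to 28.8) and Fcgr3 (21.9 to 24.2) overlapped in vehicle hearts, and Syk (18.8) moved ahead of Fcgr4 (15.9). In vehicle lungs Tyrobp led with 107 ± 50.2, overlapping Fcer1g (66.8 ± 4.07), and Fcgrt (54.7 ± 15.8) came next. Syk, at 3.73 ± 1.8 by all exon bases, was the last there and overlapped Fcgr2b (4.91 ± 1.3) and Fcgr1 (6.45 ± 4.35), an order that depended on the length used. Hearts and lungs were scaled together here, whereas the peritoneal libraries form a separate table and their values were not compared with those of the organs.

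**Figure D1:**
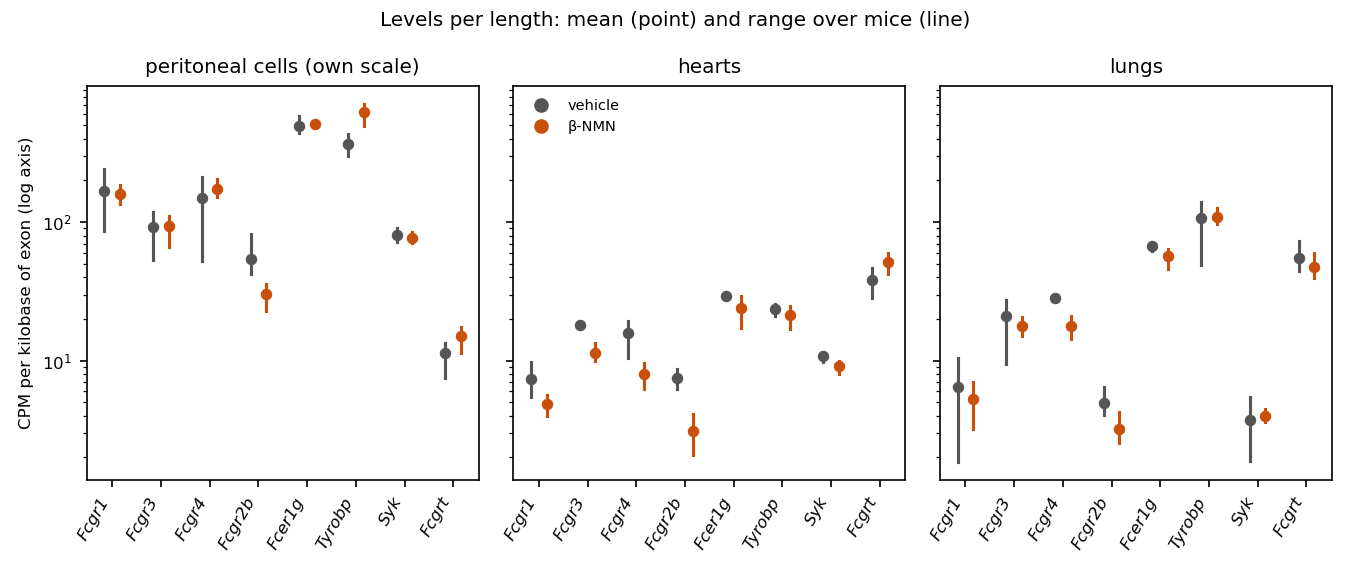
Level of each gene in CPM per kilobase of exon (log axis) in peritoneal cells, hearts and lungs, with the mean as a point and the range over mice as a line, vehicle in grey and β-NMN in orange. The adaptors Fcer1g and Tyrobp led in peritoneal cells, where Fcgrt was lowest, whereas Fcgrt led in hearts.

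The first comparison asked how β-NMN given in vivo altered these genes in peritoneal cells that then met bacteria. Fcgr2b, the inhibitory receptor, was 0.552 times as high with β-NMN, Tyrobp was 1.70 times as high and Fcgrt 1.32 times as high. The activating receptors Fcgr1, Fcgr3 and Fcgr4, their γ chain Fcer1g and the kinase Syk did not pass the test. Of the 8 members, 2 were called higher and 1 lower at an adjusted p below 0.05 in edgeR's quasi-likelihood test. Among the 14985 genes tested, 23.7% were called higher and 27.9% lower, so the counts of members were near this background. The groups did not overlap for 1 member that was lower (14% of all genes) and for 1 that was higher (12.6% of all genes).

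Of the activating receptors, Fcgr1 encodes the high-affinity receptor for IgG2a. Its lowest, median and highest values were 224, 462 and 628 CPM in vehicle cells and 350, 401 and 484 CPM in β-NMN cells. The β-NMN values lay inside the vehicle range, and the log2 fold change was −0.08 (standard error 0.18, adjusted p = 0.740). Fcgr3, a low-affinity receptor for immune complexes, ran from 93.2 over a median of 159 to 205 CPM with vehicle and from 114 over 165 to 192 CPM with β-NMN, a log2 fold change of 0.02 (standard error 0.17, adjusted p = 0.943). Fcgr4, which binds IgG2a and IgG2b, ran from 66.0 over 211 to 267 CPM with vehicle and from 190 over 220 to 258 CPM with β-NMN, a log2 fold change of 0.23 (standard error 0.25, adjusted p = 0.461). For all 3 genes vehicle replicate 4 was the lowest of the 12 libraries, and the vehicle mice were spread more widely than the β-NMN mice.

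Fcgr2b had its lowest, median and highest values at 244, 295 and 478 CPM in vehicle cells and at 132, 179 and 207 CPM in β-NMN cells. Every β-NMN library was below every vehicle library. The log2 fold change was −0.86 (standard error 0.16, adjusted p = 0.000497), and exact two-sided permutation of the 12 libraries gave p = 0.00216, the smallest possible. The highest value, 478 CPM, belonged to vehicle replicate 2, and without that library the log2 fold change was −0.71 (adjusted p = 0.000581). Bulk RNA cannot tell fewer cells of a type from less RNA per cell.

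Fcer1g, the γ chain, was nearly level, with 384, 418 and 507 CPM as the lowest, median and highest values in vehicle cells and 421, 439 and 474 CPM in β-NMN cells. Its log2 fold change was 0.03 (standard error 0.09, adjusted p = 0.800). Tyrobp, the other ITAM adaptor, moved apart from it. It ran from 202 over 238 to 287 CPM with vehicle and from 333 over 424 to 477 CPM with β-NMN, without overlap, and its log2 fold change was 0.76 (standard error 0.11, adjusted p = 3.70e-05, exact permutation p = 0.00216). Syk, the kinase docking on both adaptors, had 678 to 845 CPM with vehicle and 662 to 799 CPM with β-NMN, a log2 fold change of −0.08 (standard error 0.08, adjusted p = 0.430). Fcgrt ran from 15.8 over 24.8 to 28.3 CPM with vehicle and from 23.8 over 32.2 to 36.7 CPM with β-NMN. These ranges overlapped, and the log2 fold change was 0.40 (standard error 0.14, adjusted p = 0.0221).

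The peritoneal libraries fell into a deep and a shallow set, and the labels give no batch for them. Over the 5 deep libraries (3 vehicle and 2 β-NMN, 90571560 to 112456050 reads), the log2 fold changes were −0.81 for Fcgr2b (adjusted p = 0.00535), 1.11 for Tyrobp (adjusted p = 0.00200) and 0.50 for Fcgrt (adjusted p = 0.170). Over the 7 shallow libraries (3 vehicle and 4 β-NMN, 31126823 to 53319385 reads), they were −0.91 for Fcgr2b (adjusted p = 0.0117), 0.59 for Tyrobp (adjusted p = 0.00986) and 0.41 for Fcgrt (adjusted p = 0.0804). Fcgr2b and Tyrobp thus passed the test within each set, and Fcgrt in neither.

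**Figure D2:**
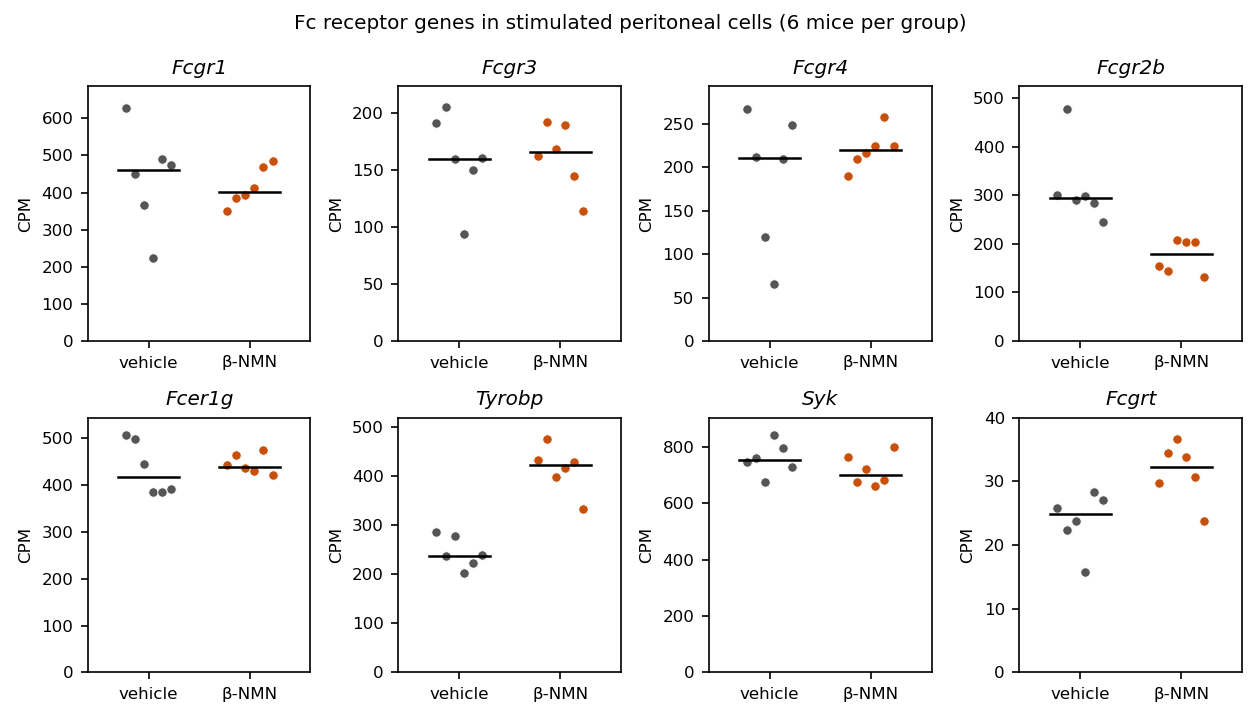
CPM of each member in the 12 peritoneal libraries (6 vehicle in grey, 6 β-NMN in orange), 1 point per mouse with a line at the median and every axis starting at 0. The groups separated for Fcgr2b (244 to 478 against 132 to 207 CPM) and for Tyrobp (202 to 287 against 333 to 477 CPM) and overlapped for the other members.

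The plated cells were not pure macrophages, and the markers of other cells moved with treatment. Of 10 macrophage markers, 3 were called higher and 1 lower, and their sum overlapped between groups (7540 to 14200 CPM with vehicle, 11100 to 13000 with β-NMN). Of the 8 neutrophil markers tested, 6 were called lower and 1 higher, and their sum was 495 to 1010 CPM with vehicle and 335 to 468 CPM with β-NMN, without overlap. All 7 markers of T and NK cells were called lower (sum 40.3 to 195 CPM against 10.4 to 29.7 CPM), as were 3 of 5 dendritic cell markers, with 1 called higher (32.7 to 53.0 CPM against 14.1 to 18.3 CPM). Of 5 B cell markers, 3 were called lower, and their sums of 37.1 to 189 CPM and 25.9 to 92.3 CPM overlapped. Neutrophils and B cells also express Fcgr2b, and in B cells it is the main Fc gamma receptor. No marker of these lists was at 0 in every library. The part of these cells in the Fcgr2b and Tyrobp results was not tested.

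Receptors that share the adaptors with the Fc gamma receptors were listed to set Tyrobp and Fcer1g in context. Of 22 such receptors tested, 5 were called higher and 13 lower, with a median log2 fold change of −0.85, beside −0.02 over all genes tested. These and the following counts stand beside the 23.7% called higher and 27.9% called lower among all genes. Trem2, a lipid-sensing partner of DAP12, rose from 166 ± 43.5 to 410 ± 54.2 CPM (SD, n = 6; log2 fold change 1.30, adjusted p = 6.34e-06). Trem1, the DAP12 partner that amplifies inflammatory responses, fell from 31.1 ± 7.81 to 0.580 ± 0.463 CPM (log2 fold change −5.80, adjusted p = 2.89e-08), and Trem3 fell by 5.78 on the log2 scale. The partners of DAP12 therefore moved in both directions while the adaptor itself rose. Among the partners of the γ chain, Clec4n, the fungal receptor Dectin-2, fell from 59.5 ± 18.3 to 2.29 ± 0.603 CPM (log2 fold change −4.72, adjusted p = 4.19e-09), and Pira2, which binds class I molecules, rose from 18.8 ± 1.64 to 34.8 ± 2.93 CPM. Clec4e, the glycolipid receptor Mincle and the most abundant gene of the list, fell from a mean of 4040 to 2030 CPM (log2 fold change −0.99, adjusted p = 4.71e-05) and was picked out after its values were seen. Cd300lb was the remaining rise named by the rule (log2 fold change 1.00).

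Of 17 receptors listed as inhibitory, 4 were called higher and 6 lower, near the 23.7% and 27.9% of all genes, with a median log2 fold change of −0.27. The list was drawn up as one of ITIM receptors, but it also holds Lilra6, an activating type, and Cd33, whose mouse form lacks the usual motif. Siglece, a sialic acid receptor, fell from 56.7 ± 14.0 to 1.67 ± 0.744 CPM (SD, n = 6; log2 fold change −5.11, adjusted p = 8.12e-09). Cd33 (log2 fold change −1.11) and Pilra (−1.45) fell as well. Cd300a (0.90), Cd22 (1.09) and Pirb (0.33) rose, and Pirb, the paired inhibitory receptor for class I molecules, was the most abundant of the list with 692 ± 73.3 CPM in β-NMN cells.

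Downstream of the receptors, 6 of 28 activating components below Syk were called higher and 8 lower, again near the 23.7% and 27.9% of all genes, with a median log2 fold change of 0.04. Btk, a Tec-family kinase, rose by 0.85, the adaptor Lat2 by 0.65 and Lat by 1.27, the last from 1.69 to 4.10 CPM. Rac2, a GTPase of the phagocyte oxidase and of actin assembly, fell by 0.89, the PI3-kinase subunit Pik3r1 by 0.95 and Bcl10 by 0.93. Of 13 phosphatases and adaptors that restrain the pathway, 2 were called higher and 7 lower, with a median of −0.34. Inppl1, the lipid phosphatase SHIP2, rose by 0.65 and Dok1 by 0.64, whereas Sla fell by 2.15, Sla2 by 3.10 and Pag1 by 1.22. Inpp5d, the phosphatase recruited by the ITIM of Fcgr2b, fell from a mean of 26.6 to 14.5 CPM (log2 fold change −0.87, adjusted p = 0.000975) and was picked out for this link after its value was seen.

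Fcgr1 is a classical target of interferon γ, whose pathway was listed for that reason. Of its 10 genes tested, 2 were called higher and 4 lower. Ifng, with 617 ± 403 CPM in vehicle cells (SD, n = 6), fell by 1.62 on the log2 scale (adjusted p = 0.00168) and Ifngr1, a receptor chain, fell from 74.4 ± 6.35 to 27.9 ± 3.12 CPM (log2 fold change −1.42, adjusted p = 3.21e-08). Jak2 fell by 0.37 on the log2 scale, whereas Irf8, a transcription factor of myeloid cells, rose by 0.78 (adjusted p = 0.0202). A promoter sequence was found for 7 of the 8 members in RefSeq on GRCm38.p6, with Tyrobp missing. The core of the γ-activated site, TTCNNNGAA, which reads the same on both strands, occurred in 1 of the 9 promoters of these members, that of Fcgr1, and in 8.30% of 32851 promoters of the same length. It is shown in capitals within its surroundings at chr3:96294020-96294128, minus strand, because Ifng and Ifngr1 fell while Fcgr1 did not pass the test.
Fcgr1 promoter: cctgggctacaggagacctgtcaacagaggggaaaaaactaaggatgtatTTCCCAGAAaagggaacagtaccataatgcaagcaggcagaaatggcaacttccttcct
The first base of the match lay at −109 from the annotated start. A match of letters does not show that the site was bound.

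Among the other Fc receptors and partners, 11 were tested, of which 4 were called higher and 3 lower. Fcer2a, the low-affinity IgE receptor of B cells, fell by 2.33 on the log2 scale, Fcrl1 by 1.21 and Fcrl5 by 1.02, all genes of B cells. Those that rose, Fcrl6, Fcrls and Fcamr among them, had means below 3 CPM. B2m, the partner of FcRn, was nearly level at 3730 and 3580 CPM (log2 fold change −0.06, adjusted p = 0.659). Immunoglobulin genes, which stand for antibody-making cells, were called lower in 3 of 9 cases, among them Iglc2, which fell from 5.64 to 2.85 CPM.

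To describe which transcripts ran most like each member, the profile over the 12 peritoneal libraries was centred and compared with 6830 well-expressed genes by the root mean square difference on the log2 scale. Fcgr2b was closest to Acvr1b, an activin receptor (0.161), and to Tma16 (0.186). Tyrobp was closest to Akr1b3, aldose reductase (0.0686), and to Itm2b (0.0830). The nearest genes were Phf11a for Fcgr1 (0.116), St3gal4 for Fcgr3 (0.130), Aldh1b1 for Fcgr4 (0.169), Uqcrfs1 for Fcer1g (0.0687), Zmynd11 for Syk (0.0564) and Acot7 for Fcgrt (0.116). Among the members themselves, Fcer1g and Syk lay closest (0.200) and Fcgr1 lay at 0.291 from Fcgr4. These distances describe the same 12 libraries and carry no test.

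In hearts after CLP, the question was how β-NMN changed the same genes in an organ where leukocyte markers were low. The means of the 4 Fc gamma receptors were lower with β-NMN, with Fcgr2b at 0.419 times the vehicle level, but none of the 8 members passed the adjusted threshold in edgeR. Over 16245 genes, edgeR's quasi-likelihood test called 0% higher and 0% lower, and 1837 genes had an unadjusted p below 0.05. DESeq2 called 287 genes, among them the members Fcgr2b, Fcgr3 and Fcgr4, and limma-voom called 3 genes. At an unadjusted p below 0.05, 4 of the 8 members were lower (7.63% of all genes) and none was higher (3.68% of all genes). The groups did not overlap for 3 members that were lower (11.5% of all genes) and for no member that was higher (11.6% of all genes). With 3 mice against 3, an exact two-sided permutation test cannot give a p below 0.1.

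Fcgr1 measured 13.9, 11.4 and 20.2 CPM in the hearts of vehicle mice and 9.91, 8.06 and 11.6 CPM in those of β-NMN mice (replicates 1, 2 and 3 in that order here and below). These overlapped narrowly, and the log2 fold change was −0.62 (standard error 0.25). Fcgr3 measured 25.5, 25.3 and 23.4 CPM with vehicle and 18.3, 13.5 and 14.6 CPM with β-NMN, without overlap (log2 fold change −0.68, standard error 0.15, exact permutation p = 0.1). Fcgr4 measured 19.1, 10.6 and 17.8 CPM with vehicle and 9.61, 6.13 and 7.83 CPM with β-NMN, again without overlap (log2 fold change −1.02, standard error 0.27, exact permutation p = 0.1). All 3 activating receptors were thus lower on average in β-NMN hearts, and the adjusted p in edgeR was 0.435 for each.

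Fcgr2b measured 33.2, 40.4 and 28.9 CPM in vehicle hearts and 14.6, 9.46 and 18.8 CPM in β-NMN hearts. The groups did not overlap, and the log2 fold change was −1.26 (standard error 0.26, adjusted p = 0.435, exact permutation p = 0.1). DESeq2 gave adjusted p of 0.00416 for Fcgr2b, 0.0199 for Fcgr3 and 0.0497 for Fcgr4. Without each heart in turn, the adjusted p of Fcgr2b in edgeR stayed between 0.210 and 0.750, and its log2 fold change between −1.51 and −1.03.

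The adaptors, the kinase and Fcgrt overlapped between groups. Fcer1g measured 20.7, 20.5 and 19.7 CPM in vehicle hearts and 17.8, 20.0 and 12.0 CPM in β-NMN hearts (log2 fold change −0.29, standard error 0.20, adjusted p = 0.512). Tyrobp measured 12.4, 11.2 and 13.6 CPM with vehicle and 12.0, 12.9 and 8.92 CPM with β-NMN (log2 fold change −0.14, standard error 0.18, adjusted p = 0.696). In both genes β-NMN replicate 3 was the lowest heart and the remaining values were close together. Syk measured 71.0, 82.3 and 86.3 CPM with vehicle and 69.1, 58.8 and 73.2 CPM with β-NMN (log2 fold change −0.25, standard error 0.13, adjusted p = 0.457). Fcgrt was the only member with a higher mean in β-NMN hearts, at 87.9, 97.5 and 70.0 CPM against 65.4, 47.7 and 77.3 CPM with vehicle. The log2 fold change was 0.42 (standard error 0.21, adjusted p = 0.451).

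Leukocyte markers in the hearts were low and partly moved with the receptors. The sum of 5 monocyte markers was 8.41 to 24.2 CPM in vehicle hearts and 3.95 to 4.87 CPM in β-NMN hearts, and that of 10 neutrophil markers was 27.0 to 44.4 CPM and 16.1 to 20.0 CPM, both without overlap. Vehicle replicate 2 stood apart from the other vehicle hearts, with the highest sums of markers of monocytes (24.2 CPM against 8.41 and 10.3), B cells (5.72 against 0.553 and 0.669) and mast cells (15.6 against 2.18 and 3.29) and of immunoglobulin genes (92 against 1.51 and 2.71). It had the lowest sum of cardiomyocyte markers (29600 CPM against 45800 and 46100) and a TMM factor of 1.23, where the other hearts had 0.942 to 0.984. It was at the same time the lowest of the 6 hearts for macrophage markers (397 CPM), dendritic cell markers (13.5 CPM) and Ptprc (8.35 CPM). It was also the highest heart for Fcgr2b, with 40.4 CPM. Without it, the log2 fold changes were −1.13 for Fcgr2b, −0.68 for Fcgr3 and −1.25 for Fcgr4, with adjusted p of 0.210, 0.189 and 0.113 in edgeR. The sums of dendritic cell markers (13.5 to 24.4 against 25.9 to 29.0 CPM) and cardiomyocyte markers also did not overlap between the groups, both higher with β-NMN. The dendritic cell sum lay mostly in Zbtb46 (15.0 ± 4.42 against 19.8 ± 1.57 CPM, SD, n = 3). Clec9a had a higher mean with β-NMN too (3.76 against 6.70 CPM), whereas Xcr1 had a lower one (0.821 against 0.340 CPM). The list of resident peritoneal macrophage markers summed to 168 to 328 CPM with vehicle and 135 to 143 CPM with β-NMN, but in hearts it does not stand for that cell type, since its highest gene was Gata6, which heart tissue itself expresses (94.5 ± 12.2 against 88.5 ± 8.30 CPM, SD, n = 3), and the marker Timd4 had 1.12 and 1.2 CPM. The difference in its sum lay mostly in Selp, P-selectin of platelets and activated endothelium (39.1 ± 39.8 against 3.30 ± 0.847 CPM), and in the chemokine Cxcl13 (65.3 ± 44.7 against 21.3 ± 7.51 CPM), neither of them called in edgeR, both picked out after their values were seen. The 10 macrophage markers overlapped (397 to 590 CPM against 409 to 694 CPM), as did the pan-leukocyte gene Ptprc (8.35 to 13.4 CPM against 9.16 to 10.1 CPM). No gene of these lists was called in edgeR or was at 0 in every heart, and their part in the Fcgr2b, Fcgr3 and Fcgr4 values was not tested. Of the pathway genes, none was called in edgeR, and the adjusted p was 0.435 for each of those named here. Lower means with β-NMN were seen for Pik3r5, a PI3-kinase subunit (21.9 ± 1.12 against 14.6 ± 1.01 CPM, SD, n = 3), the Src-family kinase Fgr (7.64 ± 1.70 against 2.56 ± 1.03 CPM), Cd33 (8.11 ± 4.56 against 2.33 ± 0.165 CPM), Pirb (40.4 ± 3.67 against 25.9 ± 4.65 CPM) and Inpp5d (18.7 ± 1.83 against 14.1 ± 1.25 CPM). Higher means were seen for Fcrls (2.37 ± 0.680 against 7.05 ± 3.42 CPM), Pigr (0.302 ± 0.170 against 1.63 ± 1.5 CPM) and Fyn (43.3 ± 8.72 against 57.3 ± 3.44 CPM). Of the 13 receptors sharing the adaptors that were tested, 6 had an unadjusted p below 0.05, all lower (7.63% of all genes were lower and 3.68% higher at this threshold), with a median log2 fold change of −0.53 beside −0.01 over all genes.

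In lungs after CLP, the lowest folds with β-NMN were those of Fcgr4 (0.625) and Fcgr2b (0.644). For 4 of the 8 members (Fcgr1, Fcgr3, Tyrobp and Syk) all β-NMN lungs lay inside the vehicle range, which vehicle replicate 2 extended downwards in each. None of the 8 members passed the adjusted threshold. Over 17008 genes, edgeR's quasi-likelihood test called 0% higher and 0% lower, the smallest adjusted p was 0.969, 301 genes had an unadjusted p below 0.05, DESeq2 called 5 genes and limma-voom 7, and none of these was a member. At an unadjusted p below 0.05, 1 member was lower (1.28% of all genes) and none was higher (0.494% of all genes). The groups did not overlap for 2 members that were lower (3.75% of all genes) and for no member that was higher (4.47% of all genes).

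Fcgr4 measured 45.2, 46.8 and 42.9 CPM in vehicle lungs and 33.7, 22.8 and 27.8 CPM in β-NMN lungs, and the groups did not overlap. Its log2 fold change was −0.68 (standard error 0.22, adjusted p = 0.969). Fcgr2b measured 45.6, 31.8 and 30.7 CPM with vehicle and 18.9, 20.3 and 30.4 CPM with β-NMN, so that the highest β-NMN lung came close to the lowest vehicle lung (log2 fold change −0.64, standard error 0.28, adjusted p = 0.969). Without the deviating lung of vehicle replicate 2, the log2 fold changes were −0.65 for Fcgr4 and −0.72 for Fcgr2b (adjusted p = 0.991). Leaving out each lung in turn gave −0.83 to −0.54 for Fcgr4 and −0.87 to −0.41 for Fcgr2b.

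The remaining members were spread widely in vehicle lungs. Fcgr1 measured 22.4, 6.50 and 33.5 CPM with vehicle and 18.3, 10.4 and 22.4 CPM with β-NMN (log2 fold change −0.30, standard error 0.58), and Fcgr3 measured 58.8, 22.5 and 54.8 CPM with vehicle and 39.2, 33.0 and 44.4 CPM with β-NMN (log2 fold change −0.23, standard error 0.37). In both, vehicle replicate 2 was below every β-NMN lung while the other vehicle lungs were at or above them. Tyrobp followed the same pattern with 108, 44.9 and 116 CPM against 87.6, 80.9 and 104 CPM (log2 fold change 0.02, standard error 0.38), and so did Syk in part, with 44.4, 23.8 and 63.2 CPM against 43.1, 52.7 and 45.4 CPM (log2 fold change 0.10, standard error 0.36). Fcer1g measured 66.9, 81.9 and 75.1 CPM with vehicle and 72.2, 50.6 and 65.6 CPM with β-NMN (log2 fold change −0.25, standard error 0.23). Fcgrt measured 122, 209 and 114 CPM with vehicle and 161, 116 and 102 CPM with β-NMN (log2 fold change −0.23, standard error 0.33). The direction of Tyrobp, Syk and Fcgrt turned without vehicle replicate 2, to −0.30, −0.19 and 0.10. With each lung left out in turn, the log2 fold change of Fcgr1 ranged from −0.71 to 0.22 and that of Fcgr3 from −0.55 to 0.008.

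In lungs the sums of neutrophil and monocyte markers overlapped between groups, with neutrophil sums of 1830 to 3000 CPM and 1660 to 2630 CPM and monocyte sums of 586 to 1180 CPM and 907 to 938 CPM. The monocyte sums were made up mostly of Chil3 (means of 698 and 795 CPM), and so say little of Ly6c2 (20.3 and 21.2 CPM) or Ccr2 (17.6 and 19.3 CPM). Macrophage sums did not overlap, at 1690 to 4780 CPM with vehicle and 5380 to 5930 CPM with β-NMN, and were made up mostly of Lyz2, which alveolar type II cells also express. Dendritic cell sums (42.0 to 75.6 against 77.0 to 97.2 CPM) and eosinophil sums (15.3 to 34.6 against 35.0 to 44.2 CPM) did not overlap either, both higher with β-NMN. Vehicle replicate 2 was the lowest lung for these 3 sums. The eosinophil sums were made up mostly of Ear1 (means of 14.7 and 23.6 CPM) and Siglecf (9.32 and 12.3 CPM). Those sums therefore say little of Prg2, which was nearly level (1.74 and 1.86 CPM). Of the 5 eosinophil markers listed, only these 3 were tested in lungs. Cardiomyocyte markers, low in lungs, summed to 252 to 415 CPM with vehicle and 74.3 to 245 CPM with β-NMN, also without overlap, and no marker of these lists was called in edgeR. Their part in the lung values was not tested. No pathway gene was called in lungs in edgeR. Those with the smallest p were Pigr, the epithelial receptor for polymeric immunoglobulin (1800 ± 2770 against 102 ± 38.0 CPM, SD, n = 3), whose list summed to 5370 CPM in vehicle replicate 2 alone, Socs1, a feedback inhibitor of cytokine signalling (6.52 ± 1.63 against 2.87 ± 0.878 CPM), and Cd300a (26.9 ± 4.35 against 17.3 ± 1.12 CPM).

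**Figure D3:**
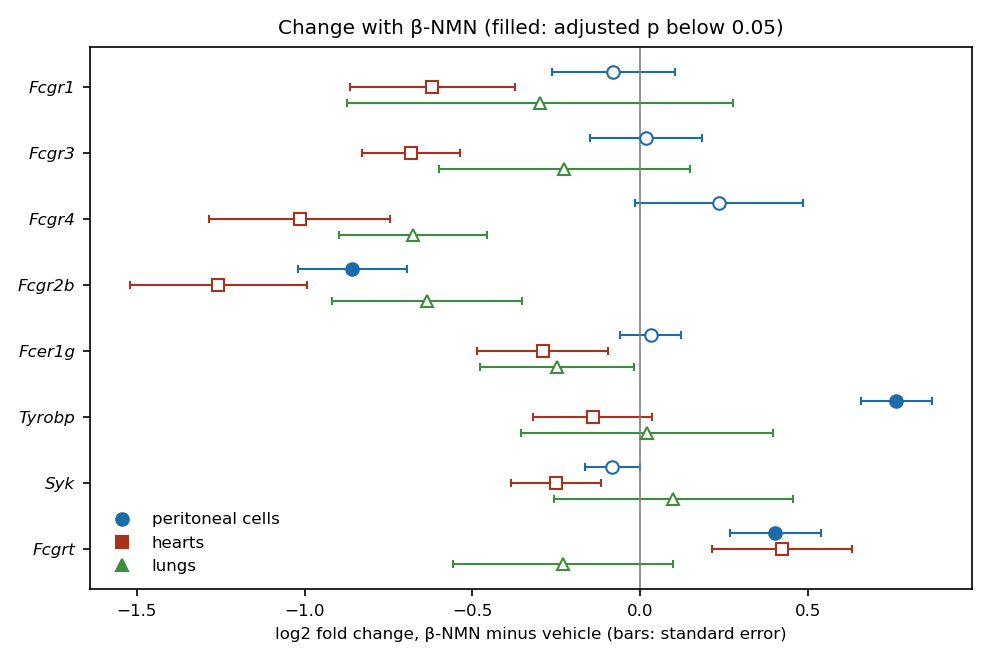
Log2 fold change of each member (β-NMN minus vehicle) with its standard error in peritoneal cells, hearts and lungs, filled where the adjusted p was below 0.05. Fcgr2b (−0.86, −1.26 and −0.64) and Fcgr1 (−0.08, −0.62 and −0.30) were below 0 in all 3 tissues, of which Fcgr2b in peritoneal cells was called, while Tyrobp (0.76) and Fcgrt (0.40) were called higher there.

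Fcgr2b was the member with the lowest mean fold in peritoneal cells and in hearts, and its mean log2 fold change was below 0 in each of the 3 tissues, as was that of Fcgr1 (−0.08, −0.62 and −0.30). The hearts and lungs came from the same mice and so are not independent of each other. Whether the change differed between the organs was tested as an interaction over the 12 CLP libraries. None of the 8 members was called, and neither was any of the 18318 genes (0%), with 797 at an unadjusted p below 0.05 and 14 called by DESeq2. The change of Fcgr2b was 0.63 higher in lungs than in hearts on the log2 scale (standard error 0.42, adjusted p = 0.960) and that of Fcgrt was 0.63 lower (standard error 0.38, adjusted p = 0.960), so the opposite signs of Fcgrt in the organs were not shown to differ. Without each mouse in turn, this difference ranged from 0.39 to 0.89 for Fcgr2b and from −0.91 to −0.18 for Fcgrt.

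The organs were also compared with each other, over both treatments and on a common scale, on which the median difference of all genes was 0.14 (log2, lung minus heart). Here 3 of the 8 members were called higher in lungs (35.9% of all genes) and 1 was called higher in hearts (28.9% of all genes). Tyrobp was 4.82 times as high in lungs, with a mean of 72.0 CPM (32.9 to 94.0) against 15.0 CPM (11.2 to 17.2) in hearts and the lung above the heart in 6 of 6 mice (log2 difference 2.27, standard error 0.24, adjusted p = 7.02e-06). Fcer1g was 2.33 times as high, at 54.2 against 23.3 CPM, and Fcgr4 was 1.99 times as high, at 28.8 against 15.0 CPM, again in 6 of 6 mice each (log2 differences 1.22 and 0.99, adjusted p = 2.60e-05 and 0.000526).

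Syk went the other way. It was 2.55 times as high in hearts, at a mean of 92.8 CPM (75.3 to 109) against 36.2 CPM (17.5 to 51.2) in lungs, and the heart was above the lung in every mouse (log2 difference −1.35, standard error 0.22, adjusted p = 0.000193). The kinase and the adaptor chains that it docks on were thus distributed in opposite ways between the organs. Fcgr3 (0.44), Fcgrt (0.21), Fcgr1 (−0.03) and Fcgr2b (−0.28) did not pass the test, the values being log2 differences of lung minus heart. The edgeR fit behind these adjusted p treats both organs of a mouse as independent, although they are paired. With the mouse as a block the calls were the same, with adjusted p of 0.000119 for Tyrobp, 0.00062 for Fcer1g, 0.000909 for Fcgr4 and 0.000886 for Syk. Without both organs of vehicle replicate 2, Fcgr3 was called as well (log2 difference 0.51, adjusted p = 0.00196).

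The rest of the pathway was mostly higher in lungs, where leukocyte markers were higher too. All 10 neutrophil markers, 5 monocyte markers and 7 T and NK cell markers were called higher in lungs, as was Ptprc (log2 difference 1.6), whereas 5 of 10 macrophage markers were. Of 21 receptors sharing the adaptors, 17 were called higher in lungs and 1 in hearts, of 28 activating components 16 and 2, and of 13 restraining components 8 and 2, beside 35.9% and 28.9% of all genes. The Src-family kinases Fgr and Src were higher in lungs by 2.05 and 2.33 on the log2 scale, and the difference of Fyn was −0.95. Inpp5d, the phosphatase of the ITIM, was higher in lungs by 1.53, and the heart had more Ptpn11 (−2.0) and Inppl1 (−1.35). B2m, which FcRn needs, was higher in lungs by 1.26, whereas Fcgrt was not called. The part of the leukocyte content in these differences was not tested.

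The balance of activating and inhibitory receptors was described within each library, where scaling between libraries plays no part. The log2 ratio of Fcgr3 over Fcgr2b reads was between −1.68 and −0.61 in vehicle peritoneal cells (median −0.90) and between −0.50 and 0.41 in β-NMN cells (median −0.15), without overlap. The ratio of the summed Fcgr1, Fcgr3 and Fcgr4 over Fcgr2b was between 0.36 and 1.86 with vehicle and between 1.91 and 2.64 with β-NMN. Both ratios were higher in every β-NMN library than in any vehicle library, and since Fcgr2b is their denominator they repeat its fall rather than add to it.

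In hearts the log2 ratio of Fcgr3 over Fcgr2b was −0.38, −0.67 and −0.30 with vehicle and 0.32, 0.51 and −0.37 with β-NMN. β-NMN replicate 3 lay among the vehicle hearts. In lungs it was 0.37, −0.49 and 0.83 with vehicle and 1.05, 0.70 and 0.55 with β-NMN, with overlap. The ratio of Tyrobp over Fcer1g, the ITAM adaptors, was between −1.07 and −0.67 in vehicle peritoneal cells and between −0.34 and 0.04 in β-NMN cells, again without overlap. In lungs it was 0.69, −0.87 and 0.63 with vehicle and 0.28, 0.68 and 0.67 with β-NMN, vehicle replicate 2 being the sole lung below 0. The members were chosen with results of these data known, so the ratios carry no test.

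**Figure D4:**
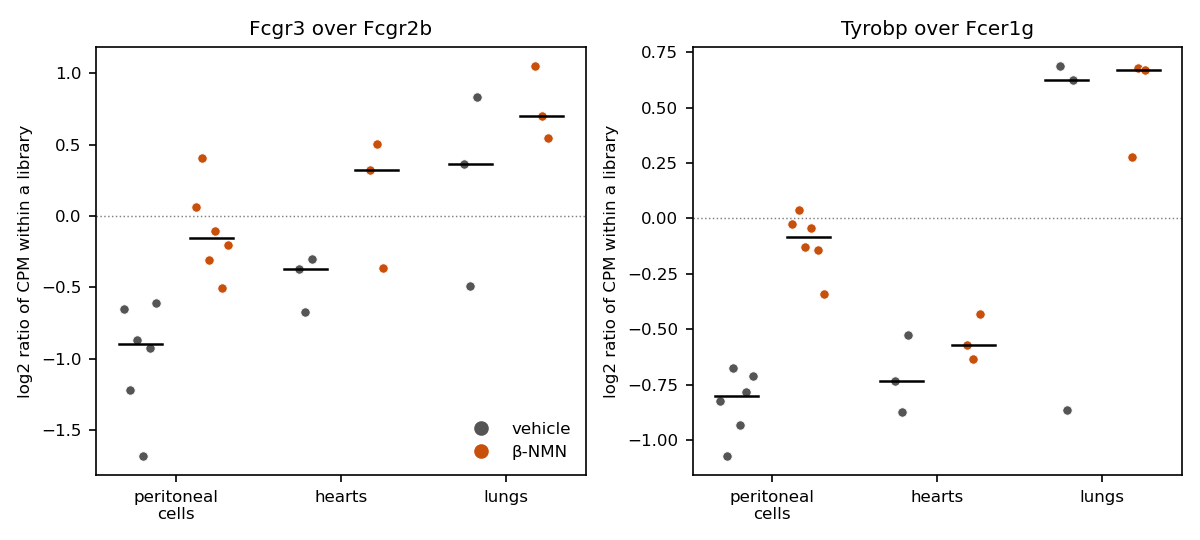
Log2 ratio of CPM within each library of Fcgr3 over Fcgr2b (left) and Tyrobp over Fcer1g (right), 1 point per mouse with a line at the median, vehicle in grey and β-NMN in orange. In peritoneal cells every β-NMN library lay above every vehicle library in both ratios (−0.50 to 0.41 against −1.68 to −0.61, and −0.34 to 0.04 against −1.07 to −0.67).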

How the data were processed

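RNA was measured in 24 libraries. Per the methods, poly(A) RNA was sequenced on a NovaSeq, and the authors aligned reads to mm10 with STAR and counted them per gene with featureCounts 2.0.0; the submitters' notes name STAR 2.7.3a, reads are called single-end and paired-end, and annotation, strand setting and handling of multi-mapped reads are not given in the sources used here. The authors deposited 2 tables of raw counts per gene symbol. The sample labels group the libraries; 2 β-NMN hearts carry the number 3, and the heart of the mouse that gave lung 2 was used as replicate 2. Titles give CLP for the organs, against a source label that names TGC.

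A separate edgeR 4.0.16 model per tissue (R 4.3.3) used filterByExpr, TMM, the older quasi-likelihood test, Benjamini-Hochberg adjustment over all genes tested and a threshold of 0.05. Both organs entered an interaction and a contrast of organs. Log2 CPM used a prior count of 2. Exact permutation tests were two-sided. Alternatives were DESeq2 1.42.0, its size factors, limma-voom (limma 3.58.1), no filter, newer and robust fits, blocks and leaving out each library; 2 depth subsets were added after seeing the data. The tests were checked on simulated counts. The members and the 22 gene lists were chosen with earlier results of these data known. Named from each pathway list were up to 3 called genes in each direction with the smallest p, or else the 2 smallest p, and the most abundant markers. Of the listed symbols, 6 were not matched. Same-numbered vehicle and β-NMN mice are different animals, and the correlations of their deviations lay between −0.52 and 0.30; heart and lung are paired by mouse (0.043 to 0.15). Each p-value sets a difference against the spread between these few mice. Gene models are GENCODE M21, promoters RefSeq. Some listed genes are not reported here.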

Additional observations from a re-analysis of the deposited data

Results flagged for a closer look

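Vehicle replicate 2 stood apart for Fcgr2b in peritoneal cells, with 478 CPM where the next highest of the 6 vehicle libraries had 300 CPM. On the log2 scale its gap to the nearest library was 0.69 of the range of the group, above Dixon's critical value of 0.625 for 6 samples. The gap was found in 1 of 16 groups examined (8 members in each treatment of the peritoneal cells), and chance alone is expected to mark about 1 in 20. Without this library the log2 fold change of Fcgr2b moved from −0.86 to −0.71 and was still called (adjusted p = 0.000581).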

How the results depend on the processing

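Of 552 recomputed values of single members, 519 kept their direction and their side of the threshold, 27 turned direction, 4 became called and 2 lost their call. Fcgr2b (log2 fold change −0.93 to −0.71) and Tyrobp (0.59 to 1.11) in peritoneal cells were called in all alternatives. With replicate numbers as a replicate block, the 3 members called in peritoneal cells stayed called (Fcgr2b −0.84, adjusted p = 0.00154), 7010 genes were called in place of 7733, and no call of a member changed in hearts, lungs or between the organs, where the block by mouse called 11408 in place of 11873 genes. Fcgrt in peritoneal cells was 0.50 over the deep and 0.41 over the shallow libraries, no longer called, and the shallow libraries gave 4244 called genes. In hearts, DESeq2 called 287 genes and 3 members (Fcgr3 −0.67, Fcgr4 −1.01, Fcgr2b −1.24), the fit without the low-count filter 3 genes, limma-voom 3, and leaving out each heart in turn 0 to 5. In lungs DESeq2 called 5 genes and limma-voom 7. For the interaction, DESeq2 called 14 genes and the fit without the filter 2. The cause of these shifts was not tested.

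The turned directions were all of members not called. In peritoneal cells they were Fcgr3 under limma-voom (−0.017) and over shallow libraries (−0.24), where Fcer1g (−0.11) and Syk (0.004) turned too. Leaving out each library in turn gave −0.063 to 0.13 for Fcgr3, −0.18 to 0.075 for Fcgr1 and −0.007 to 0.11 for Fcer1g. In hearts Tyrobp ranged from −0.25 to 0.006. In lungs limma-voom turned Tyrobp (−0.16) and Syk (−0.08), and leaving out each lung gave −0.55 to 0.008 for Fcgr3, −0.30 to 0.26 for Tyrobp, −0.19 to 0.47 for Syk, −0.44 to 0.095 for Fcgrt and −0.71 to 0.22 for Fcgr1. In the interaction Fcer1g turned with DESeq2's size factors (−0.041) and its test (−0.032), and without each mouse ranged from −0.19 to 0.36, and Tyrobp from −0.13 to 0.35. Between the organs, without each mouse in turn, Fcgrt ranged from −0.12 to 0.33 and Fcgr1 from −0.19 to 0.023. With 3 mice a group, and 8915366 reads in the shallowest lung, smaller changes in the organs may go unseen.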

Other observations

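Other cells of the peritoneal cavity were followed by their markers beside the members. Of 6 markers of resident peritoneal macrophages, 2 were called higher and 3 lower with β-NMN in edgeR, and their sum was 28.5 to 33.8 CPM with vehicle and 25.0 to 58.5 CPM with β-NMN. Of 5 mast cell markers, 1 was called lower (sum 127 to 325 CPM against 90.5 to 166 CPM). Eosinophil markers summed to 8.23 to 32.1 CPM against 15.3 to 60.7 CPM, with 1 of 2 tested called higher. Monocyte markers summed to 165 to 395 CPM against 199 to 263 CPM, with 2 of 5 called lower. The pan-leukocyte gene Ptprc was not called (log2 fold change −0.12).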
